A study of Mus musculus with 16 samples.

Results

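The genes described here are 34 interferon-induced and antigen presentation genes of the mouse, chosen as a list of symbols and matched to 34 of the 55335 Ensembl genes counted. All 34 passed the filter on low counts, which kept 19764 genes. The list holds 4 transcription factors, 4 genes of RNA sensing, 17 antiviral effectors, 3 guanylate-binding proteins (Gbp2, Gbp3 and Gbp7) and 6 genes of antigen processing and MHC class I. The libraries came from oligodendrocyte precursor cells (OPCs), the cells that give rise to myelinating oligodendrocytes, grown from mouse neural stem cells on a mixed C57BL6J/129svEmx background. They were taken on day 4 of culture, and 200 ng of RNA went into each stranded poly-A library. The 4 groups of 4 libraries were cells labelled WT (RXRg+/+) or RXRgKO (RXRg-/-), each untreated or treated with T3 for 24 hours. T3 is triiodothyronine, the active thyroid hormone, and RXRg is a retinoid X receptor, one of a family of nuclear receptors that pair with thyroid hormone receptors on DNA. The sources used here give neither the deleted part of the gene, nor the age or sex of the animals, nor whether replicates were separate cultures, so p-values cover only the variation among these libraries, which may be technical.

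Interferons bind surface receptors and act through JAK kinases. Type I interferons act through STAT2 and IRF9, which take part in binding the interferon-stimulated response element (ISRE) of antiviral genes, and genes that respond to interferon gamma often carry the gamma-activated site (GAS). IRF1, itself induced, binds ISRE-like sequences and is known for sustaining guanylate-binding protein and MHC class I expression. Oligodendrocyte lineage cells can express MHC class I when exposed to interferon gamma.

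Rxrg did not follow the genotype labels. This targeted gene was at 1.51 ± 0.28 CPM (counts scaled to a common library size; SD, n = 4) in untreated and 0.703 ± 0.271 CPM in T3-treated WT-labelled libraries, but at 4.25 ± 0.55 and 4.92 ± 0.49 CPM in RXRgKO-labelled ones, so the groups are named below by their labels. Gene counts per library ranged from 18262279 to 42588442. Libraries also fell into sets of like libraries within each group: WT-labelled replicate 1 stood apart from replicates 2 to 4, and RXRgKO-labelled libraries lacking Xist (untreated replicates 1 and 3, T3-treated replicates 1 and 2) stood apart from those with Xist. Xist is the RNA of the inactive X chromosome. Under the RXRgKO label it was at 1.39 to 3.75 CPM in the libraries said to lack it and at 543 to 723 CPM in the others. Every WT-labelled library had Xist, at 276 to 1382 CPM, so libraries lacking it occurred under the RXRgKO label alone. The comparisons between labels therefore set groups with Xist throughout against groups with and without it. The chi-square per gene was 1.5 to 2.12 within sets and 4.94 to 9.62 between them. Of 10 OPC markers, all averaged 1 CPM or more in every group, with sums from 2194 to 5476 CPM. The same held for 10 astrocyte markers, with sums from 3197 to 15873 CPM.

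RefSeq promoters (GRCm38.p6, 250 bases before to 50 after the start) matched 28 of the 34 members. The ISRE core GAAANNGAA, searched on both strands, occurred in 15 of these 28 members, and in 45.5% of their 33 promoters against 8.56% of all 32851 promoters. All 3 Gbp genes were among the 15. The sequences below show where it lies in the Gbp genes, whose response to T3 is the main contrast within the list, and in Isg15, Ifit1, Samd9l and Ifitm3, which differed between the labels. Capitals mark the ISRE core, which reads as its reverse complement where it lies on the other strand.
Gbp2: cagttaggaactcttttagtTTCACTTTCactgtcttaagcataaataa
Gbp3: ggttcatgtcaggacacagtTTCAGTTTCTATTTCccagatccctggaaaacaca
Gbp7: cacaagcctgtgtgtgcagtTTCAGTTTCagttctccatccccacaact
Isg15: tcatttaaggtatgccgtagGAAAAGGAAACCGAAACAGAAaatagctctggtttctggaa
Ifit1: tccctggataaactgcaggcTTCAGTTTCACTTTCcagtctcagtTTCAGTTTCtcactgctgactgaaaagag
Samd9l: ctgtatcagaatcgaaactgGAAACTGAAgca
Ifitm3: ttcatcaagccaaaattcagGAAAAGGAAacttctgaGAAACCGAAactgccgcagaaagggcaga
The stretches are chr3:142620585-142620633, chr3:142559980-142560034 and chr3:142530264-142530312 for the Gbp genes, chr4:156200856-156200916 for Isg15, chr19:34640760-34640833 for Ifit1, chr6:3399522-3399553 for Samd9l and chr7:141010697-141010762 for Ifitm3. The Isg15, Samd9l and Ifitm3 stretches are on the minus strand and the others on the plus strand, each written 5′ to 3′ along its gene. Gbp7, Gbp3 and Gbp2 lie in that order in a cluster of Gbp genes on chromosome 3. Gbp3 held 2 overlapping matches, Gbp2 and Gbp7 held 1 each, and Isg15 and Ifit1 held 3 each. The GAS TTCNNNGAA occurred in 7 of the 28 members (Irf1, Ifit2, Bst2, Ifitm3, Ifi35, Gbp7 and Psmb8) and in 21.2% of their promoters against 8.3% of all. The nuclear receptor hexamer AGGTCA occurred in 4 members (Irf9, Xaf1, H2-K1 and H2-D1) and in 15.2% of their promoters against 16.3% of all. A repeat of that hexamer in the same direction with 4 bases between was in no member promoter and in 0.0152% of all. A match is a stretch of letters, and binding was not measured.

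With T3 all 3 guanylate-binding protein genes rose in the WT-labelled libraries, together with Irf1 and the class I gene H2-D1, and Gbp3 and Gbp7 rose in the RXRgKO-labelled libraries. None of the 17 antiviral effectors and none of the 4 RNA sensing genes passed the test under either label. In total 5 of 34 members were higher and 0 lower with T3 in the WT-labelled libraries, where 4.96% of all genes tested were higher and 3.48% lower (8.44% in both directions). In the RXRgKO-labelled libraries 2 of 34 were higher and 0 lower, where 2.01% of all genes were higher and 0.794% lower (2.81% in both directions). The median log2 fold change of the 34 members was 0.36 in the WT-labelled and 0.07 in the RXRgKO-labelled libraries, against -0.03 and -0.00188 for all genes tested. T3-treated libraries lay above untreated ones without overlap for 9 members in WT-labelled libraries, against 7.69% of all genes, and for 4 in RXRgKO-labelled ones, against 7.87%. They lay below for 2 members, Oasl2 and Rsad2, in WT-labelled libraries, against 7.74% of all genes, and for 0 in RXRgKO-labelled ones, against 5.5%. Calls are those of edgeR's quasi-likelihood test with an adjusted p under 0.05 over all genes tested, and log2 fold changes and adjusted p-values below come from that test.

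**Figure D1:**
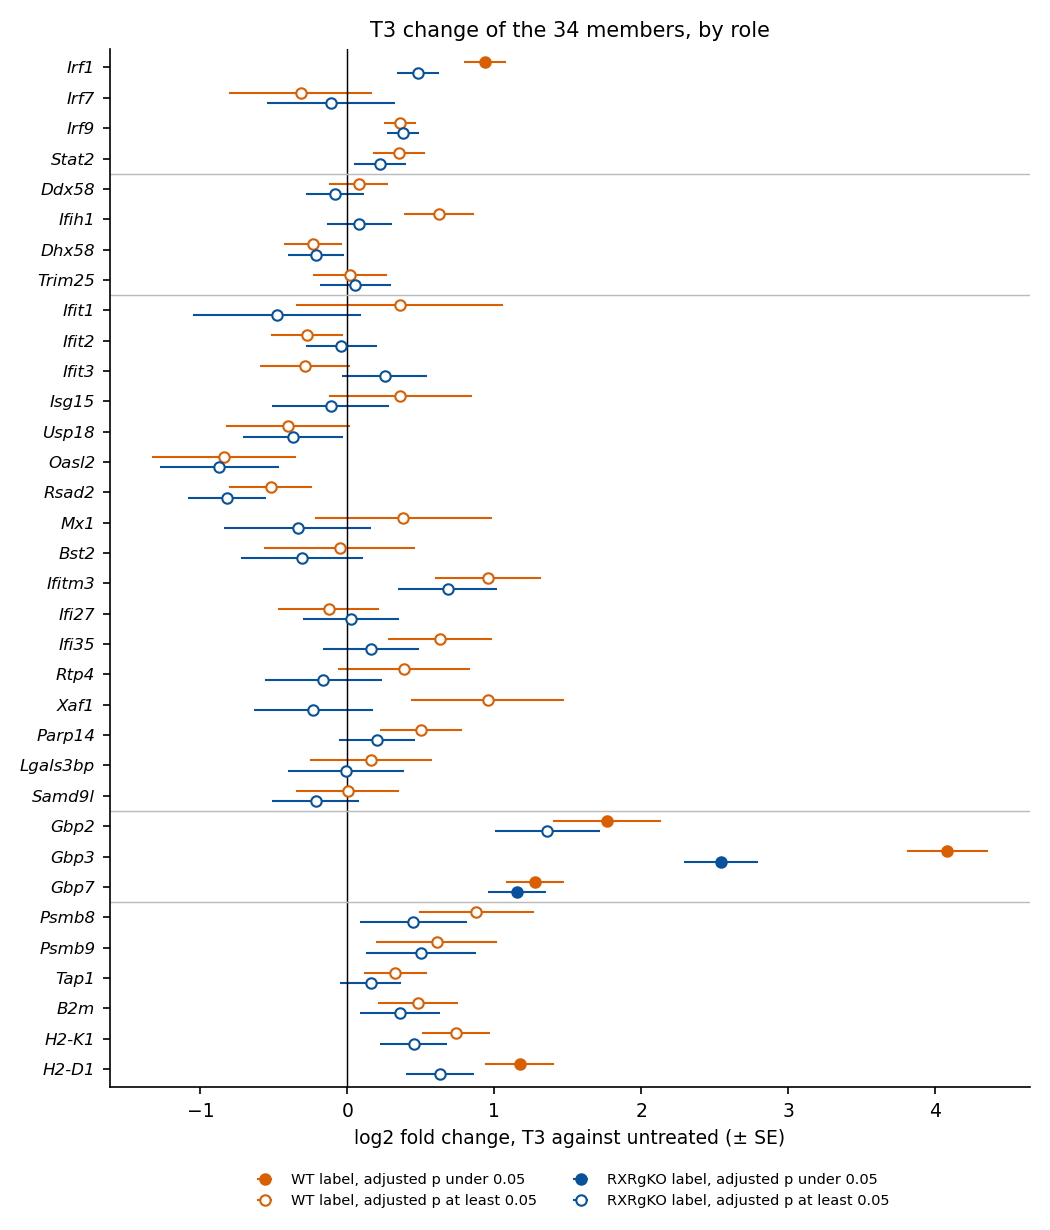
Log2 fold change with T3 (± SE) of each of the 34 members, grouped by role, in WT-labelled (orange) and RXRgKO-labelled (blue) libraries, with filled points for an adjusted p under 0.05. Gbp3 lies farthest right under both labels at 4.08 and 2.54, while the antiviral effectors lie on both sides of 0 with open points throughout.

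Gbp3, a GTPase of the family that attacks the vacuoles of intracellular pathogens, changed most. It was at 2.20, 1.73, 2.57 and 2.83 CPM in untreated WT-labelled replicates 1 to 4 and at 49.6, 35.4, 36.1 and 37.1 CPM with T3. In the RXRgKO-labelled replicates it was at 4.38, 4.97, 7.15 and 3.46 CPM untreated against 38.8, 35.7, 21.0 and 20.5 CPM with T3. Every T3-treated library was above every untreated one under each label. The log2 fold change was 4.08 (adjusted p = 2.6e-07, SE 0.28) in the WT-labelled and 2.54 (adjusted p = 1.8e-05, SE 0.25) in the RXRgKO-labelled libraries. Gbp2, another member of the family, was at 5.49, 7.98, 7.71 and 8.58 CPM in untreated WT-labelled libraries and 26.7, 19.2, 22.7 and 32.8 CPM with T3, without overlap. In the RXRgKO-labelled libraries it was at 17.8, 6.86, 19.8 and 6.75 CPM untreated against 46.7, 43.4, 20.6 and 20.9 CPM with T3. The untreated libraries lacking Xist (replicates 1 and 3) were close to the treated ones with Xist (replicates 3 and 4), although the groups did not overlap. Its log2 fold change was 1.77 (adjusted p = 0.00560, SE 0.37) under the WT label and 1.36 (adjusted p = 0.0519, SE 0.36) under the RXRgKO label, where it missed the threshold. It passed there without the libraries lacking Xist (1.59, adjusted p = 0.00336, SE 0.25) and without those with Xist (1.29, adjusted p = 0.0275, SE 0.24), settings added after seeing the data. Gbp7 was at 10.2, 6.17, 5.90 and 6.88 CPM in untreated and 21.8, 16.0, 16.2 and 16.6 CPM in T3-treated WT-labelled libraries. In the RXRgKO-labelled libraries it was at 9.08, 9.36, 12.9 and 8.27 CPM untreated against 26.9, 24.3, 18.3 and 18.6 CPM with T3. All treated libraries were again higher, by 1.28 (adjusted p = 6.3e-04, SE 0.20) and 1.15 (adjusted p = 0.00302, SE 0.20) on the log2 scale. Reads placed at several sites were left out of the counts, so reads shared by Gbp paralogs may be missing, and the same holds for the Ifit genes and for H2-K1 and H2-D1.

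**Figure D2:**
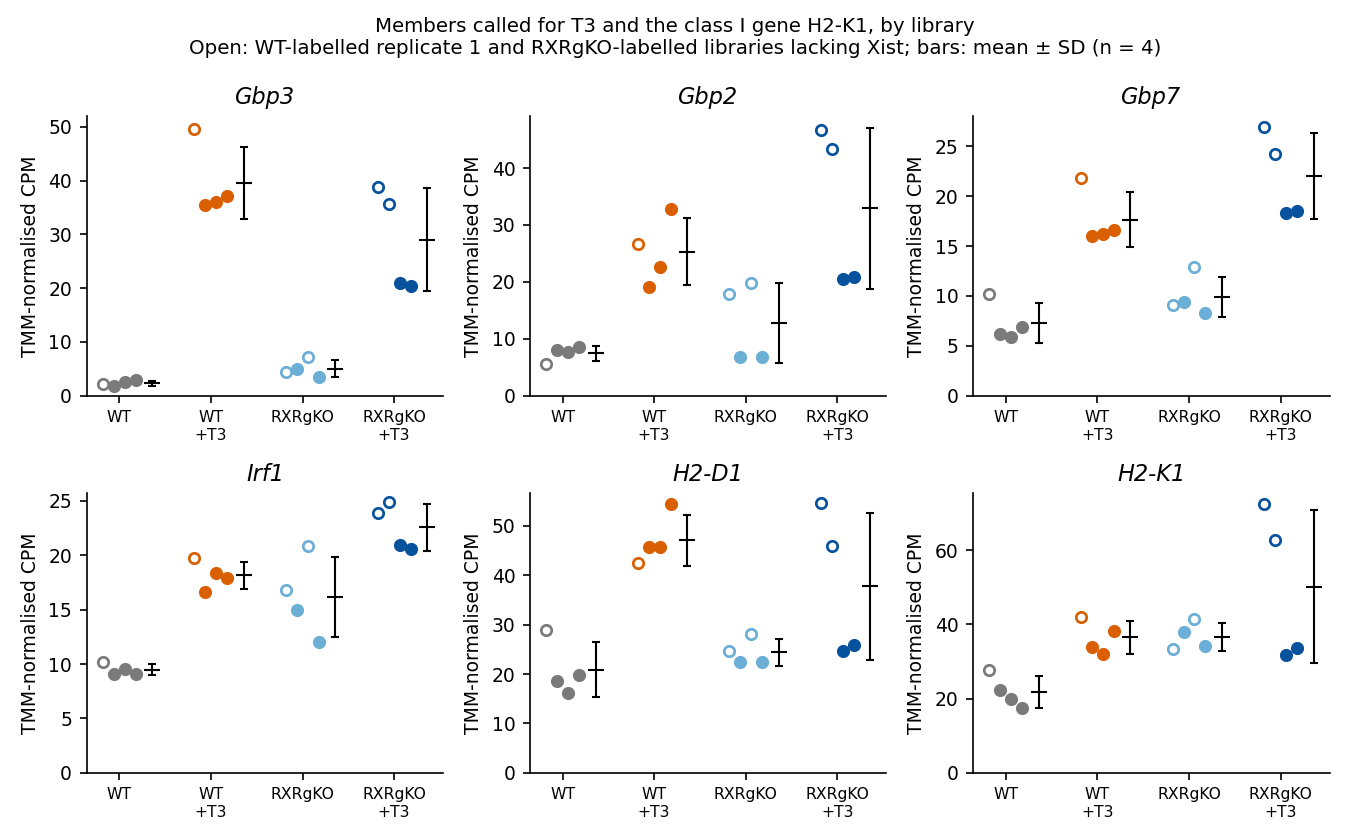
CPM by library of the 5 members called for T3 in WT-labelled libraries and of H2-K1, with mean ± SD (n = 4) beside each group. Treated Gbp3 libraries lie between 20.5 and 49.6 CPM, all above the untreated ones, and for H2-D1 and H2-K1 the RXRgKO-labelled treated group splits into a high pair (open) and a low pair (filled).

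Irf1, the transcription factor, was at 10.2, 9.13, 9.56 and 9.05 CPM in untreated WT-labelled libraries and at 19.7, 16.6, 18.3 and 17.9 CPM with T3. These groups did not overlap, and the log2 fold change was 0.94 (adjusted p = 5.5e-04, SE 0.14). In the RXRgKO-labelled libraries Irf1 was at 16.8, 15, 20.9 and 12.0 CPM untreated against 23.9, 24.9, 20.9 and 20.6 CPM with T3, with overlap and a log2 fold change of 0.48 (adjusted p = 0.0847, SE 0.14). Its untreated level there was already above that of the WT-labelled libraries. The other transcription factors did not pass under either label. Irf9, the DNA-binding part of the type I complex, had log2 fold changes of 0.36 (adjusted p = 0.0536, SE 0.11) and 0.38 (adjusted p = 0.0807, SE 0.11). Stat2 had 0.35 (adjusted p = 0.257, SE 0.18) and 0.22 (adjusted p = 0.562, SE 0.18), and Irf7, which amplifies type I interferon production, had -0.32 (adjusted p = 0.756, SE 0.49) and -0.11 (adjusted p = 0.924, SE 0.44).

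H2-D1, a classical MHC class I heavy chain, was at 29.0, 18.7, 16.3 and 19.7 CPM in untreated and 42.5, 45.7, 45.8 and 54.5 CPM in T3-treated WT-labelled libraries. The treated libraries were all higher, with a log2 fold change of 1.17 (adjusted p = 0.00454, SE 0.24). In the RXRgKO-labelled libraries H2-D1 was at 24.7, 22.3, 28.1 and 22.4 CPM untreated against 54.6, 46.0, 24.6 and 25.9 CPM with T3. Only the treated libraries lacking Xist stood above the untreated ones, and the log2 fold change was 0.63 (adjusted p = 0.182, SE 0.23). H2-K1, the other heavy chain, was at 27.6, 22.3, 19.9 and 17.5 CPM in untreated and 41.9, 34, 31.9 and 38.2 CPM in T3-treated WT-labelled libraries. The treated libraries lay above the untreated ones without overlap, yet the log2 fold change of 0.74 (adjusted p = 0.0590, SE 0.23) missed the threshold. All 6 antigen presentation members had positive values under both labels, but H2-D1 in WT-labelled libraries was the 1 call. B2m, the class I light chain, was the most expressed member per length of transcript (90.1 CPM per kilobase over the 16 libraries). It had log2 fold changes of 0.48 (adjusted p = 0.328, SE 0.27) and 0.36 (adjusted p = 0.547, SE 0.27). The sets under the RXRgKO label disagreed for B2m and H2-K1. By the log2 ratio of mean CPM + 0.5, T3 against untreated, B2m was at 0.64 in libraries lacking Xist and -0.16 in those with Xist. H2-K1 was at 0.85 and -0.14. The other antigen presentation members were positive in both sets. The immunoproteasome subunits Psmb8 and Psmb9 and the peptide transporter Tap1 had values from 0.32 to 0.88 in WT-labelled and 0.16 to 0.50 in RXRgKO-labelled libraries. Psmb9 and Tap1 overlap on opposite strands, and the sources used here do not give the strand setting of the counting, so their reads may not be told apart. Irf9 likewise shares exon sequence with Rnf31 on the same strand, and Irf7 with Phrf1 on the opposite strand.

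The antiviral effectors gave a different picture with T3. In WT-labelled libraries 10 of 17 had positive and 7 negative log2 fold changes, with a median of 0.16, and in RXRgKO-labelled libraries 5 were positive and 12 negative, with a median of -0.16. Ifitm3, which blocks virus entry at membranes, was at 4.51, 3.30, 3.83 and 3.48 CPM in untreated and 8.94, 5.47, 7.21 and 7.67 CPM in T3-treated WT-labelled libraries. All treated libraries were higher, but the log2 fold change was 0.96 (adjusted p = 0.119, SE 0.36). Oasl2, an oligoadenylate synthetase-like gene, had the lowest value under both labels, -0.84 (adjusted p = 0.340, SE 0.49) and -0.87 (adjusted p = 0.304, SE 0.40). Rsad2, which encodes viperin, had -0.52 (adjusted p = 0.300, SE 0.28) and -0.82 (adjusted p = 0.123, SE 0.27). Without the RXRgKO-labelled libraries lacking Xist (a setting added after seeing the data), Oasl2 and Rsad2 passed as lower with T3. Isg15, the ubiquitin-like modifier, and Usp18, the protease that removes it and restrains the type I receptor, had 0.36 (adjusted p = 0.722, SE 0.49) and -0.40 (adjusted p = 0.628, SE 0.42) in the WT-labelled libraries.

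Set against the other 31 members, the Gbp genes had the larger T3 changes. Their median log2 fold change was 1.77 against 0.36 for the others in WT-labelled libraries, a difference of 1.41, and 1.36 against 0.02 in RXRgKO-labelled libraries, a difference of 1.34. In each single library, the Gbp median minus the median of the others on the log2 CPM scale was 1.36 to 1.96 in untreated and 2.76 to 3.63 in T3-treated WT-labelled libraries. It was 0.98 to 1.21 in untreated and 2.53 to 2.74 in T3-treated RXRgKO-labelled libraries. The treated and untreated ranges did not overlap under either label. Within sets of like libraries the Gbp median with T3 was 2.18 in WT-labelled replicate 1 and 1.56 in replicates 2 to 4, 1.24 in RXRgKO-labelled libraries lacking Xist and 1.54 in those with Xist. The medians of the other members there were 0.07, 0.28, 0.15 and -0.18. Since the list was drawn up with these results known, this contrast is a description with no test.

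The members' counts with T3 rose with those of all genes when the sets of libraries were taken into account. With the library set as a term, 13 of 31 members tested were higher and 1, Ifit2, lower in the WT-labelled libraries, or 45.2% in both directions, where 37.6% of all genes were called and 20.2% were higher. In the RXRgKO-labelled libraries 10 of 34 were higher and 2, Rsad2 and Oasl2, lower, or 35.3%, where 37.5% of all genes were called and 22.5% were higher. Nothing particular to the members is read from these counts. With the replicate number as a block in the WT-labelled libraries alone (an alternative added after seeing the data), 12 of 31 tested were higher, or 38.7%, where 29.4% of all genes were called and 16% were higher. The 12 were Irf1, Irf9, Stat2, Ifih1, Ifitm3, the 3 Gbp genes, Psmb8, B2m, H2-K1 and H2-D1. Without untreated WT-labelled replicate 1, 9 were higher, where 12.0% of all genes were called. Without untreated RXRgKO-labelled replicate 3, where 2.04% of all genes were called, 4 were higher in the RXRgKO-labelled libraries, Irf1 and Gbp2 joining Gbp3 and Gbp7. The 7 calls given above (5 and 2) were kept in every alternative run.

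No member passed the test of the difference between the 2 T3 responses in edgeR, where 0.0658% of all genes passed (0.0101% with a higher and 0.0557% with a lower value under the RXRgKO label). At an unadjusted p under 0.05 in edgeR there were 2 of 34 members, Gbp3 and Irf1, where 1017 of 19764 genes were. Nothing particular to the members is read from that count. DESeq2 called 1, Gbp3, where 0.511% of all genes were called. The Gbp3 response was smaller by 1.54 on the log2 scale under the RXRgKO label (95% interval of the RXRgKO-minus-WT difference -2.24 to -0.85, adjusted p = 0.181 in edgeR's quasi-likelihood test). DESeq2 gave -1.56 (adjusted p = 0.0127, SE 0.38), and edgeR without the RXRgKO-labelled libraries lacking Xist gave -1.81 (adjusted p = 0.0309, SE 0.28). The Gbp3 level started higher under the RXRgKO label and ended at overlapping levels. For H2-D1 the difference was -0.54 (95% interval -1.19 to 0.10), and for Irf1 it was -0.46 (95% interval -0.85 to -0.06, adjusted p = 0.911).

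Between the genotype labels most of the calls were antiviral effectors, all higher in the RXRgKO-labelled libraries. Without T3, 17 of 34 members were higher in RXRgKO-labelled libraries and 0 lower, where 6.17% of all genes were higher and 5.16% lower (11.3% in both directions). The 17 included 11 of 17 antiviral effectors, 1 of 4 transcription factors (Irf1), 1 of 4 RNA sensing genes (Ifih1), 1 of 3 Gbp genes (Gbp3) and 3 of 6 antigen presentation genes (Psmb8, Tap1 and H2-K1). The median log2 difference of the 34 was 0.90, against -0.000818 for all genes, and 33 were positive. Stat2, at -0.25 (adjusted p = 0.469, SE 0.18), was the exception. With T3, 10 members were higher and 0 lower, where 8.1% of all genes were higher and 6.8% lower (14.9% in both directions), and the median was 0.73 against 0.02. Called in both were 8 members (47.1% of the 17 and 80.0% of the 10), namely Usp18, Oasl2, Bst2, Ifitm3, Ifi27, Parp14, Samd9l and Tap1. The share of all genes called in both was not counted, so nothing particular to the members is read from this overlap. Ifit2 and Irf9 were called with T3 alone. The 4 libraries of the RXRgKO label lay above the 4 of the WT label without overlap for 17 members without T3, against 9.35% of all genes, and for 10 with T3, against 9.17%. They lay below for 0 members without T3, against 9.36%, and for 1, Stat2, with T3, against 8.91%. In these bulk libraries more cells of a kind and more RNA per cell cannot be told apart.

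**Figure D3:**
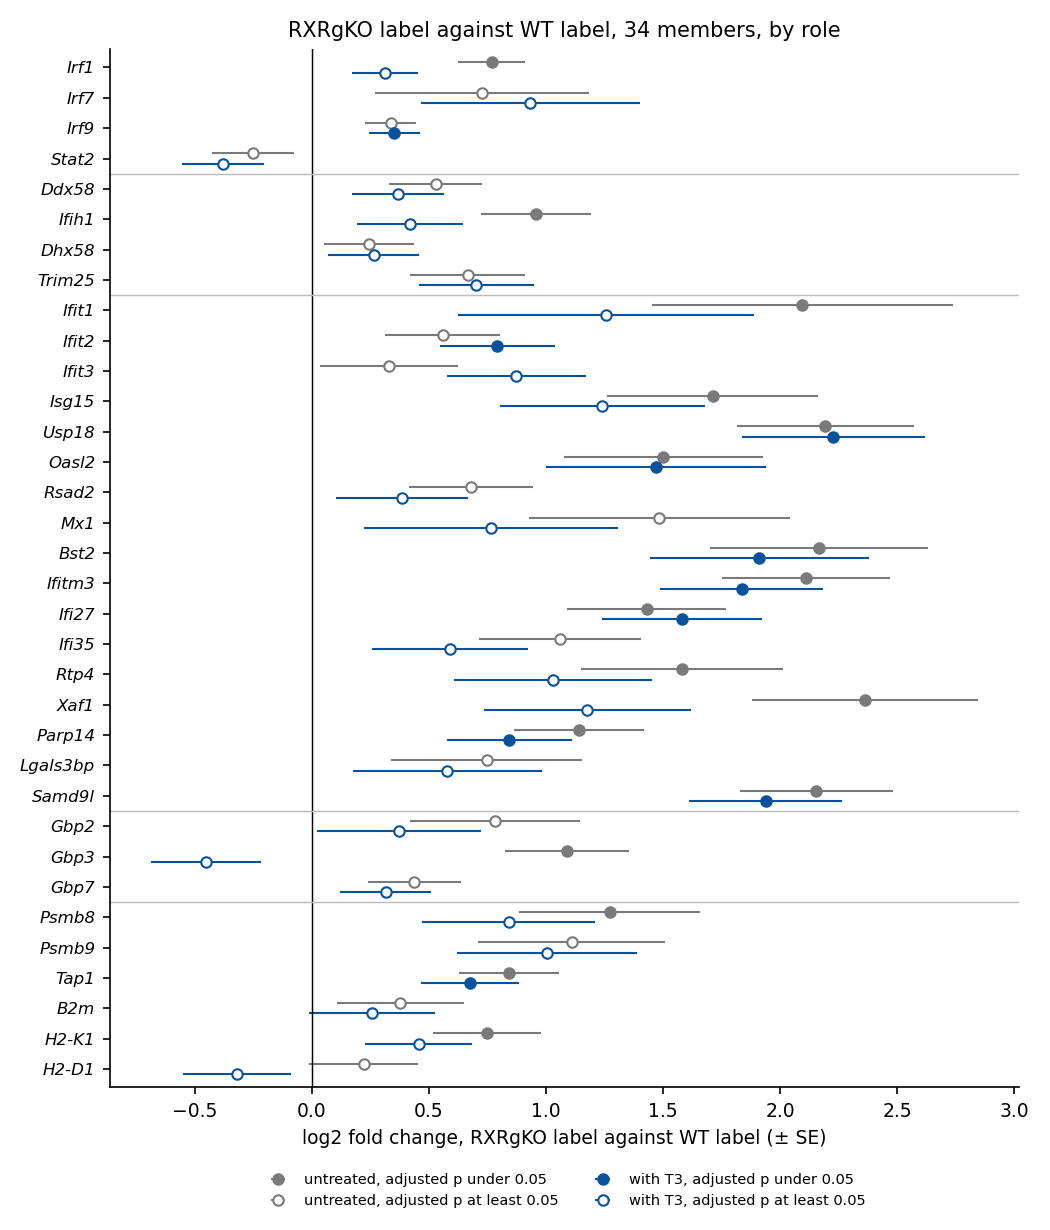
Log2 difference between RXRgKO-labelled and WT-labelled libraries (± SE) for the 34 members, grouped by role, untreated (grey) and with T3 (blue), with filled points for an adjusted p under 0.05. Most points lie right of 0, and the called ones reach 2.36 untreated (Xaf1) and 2.23 with T3 (Usp18).

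Usp18 was at 0.732, 1.14, 1.22 and 0.784 CPM in untreated WT-labelled and 3.70, 4.85, 6.09 and 3.22 CPM in untreated RXRgKO-labelled libraries. The T3-treated levels were 0.442, 0.672, 0.939 and 0.907 CPM (WT label) and 4.95, 5.42, 1.90 and 1.77 CPM (RXRgKO label). The labels did not overlap in either treatment, and the log2 differences were 2.19 (adjusted p = 8.5e-04, SE 0.38) and 2.23 (adjusted p = 8.4e-04, SE 0.39). Samd9l, an interferon-induced restriction factor, was at 0.894, 1.56, 1.56 and 1.26 CPM in untreated WT-labelled and 6.30, 5.78, 6.73 and 4.78 CPM in untreated RXRgKO-labelled libraries. With the hormone the values were 1.36, 2.11, 0.853 and 0.989 CPM (WT label) and 7.20, 7.0, 3.15 and 3.18 CPM (RXRgKO label). It did not overlap between labels either, with log2 differences of 2.16 (adjusted p = 2.7e-04, SE 0.33) and 1.94 (adjusted p = 5.7e-04, SE 0.32). Ifitm3 in RXRgKO-labelled libraries was at 18.1, 12.4, 25.4 and 9.64 CPM untreated against 43.7, 32.4, 15.1 and 14.1 CPM with T3, above the WT-labelled values given before in every library. The log2 differences were 2.11 (adjusted p = 7.8e-04, SE 0.36) and 1.84 (adjusted p = 0.00155, SE 0.35). Per length of transcript it was the second most expressed member, at 19.8 CPM per kilobase.

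**Figure D4:**
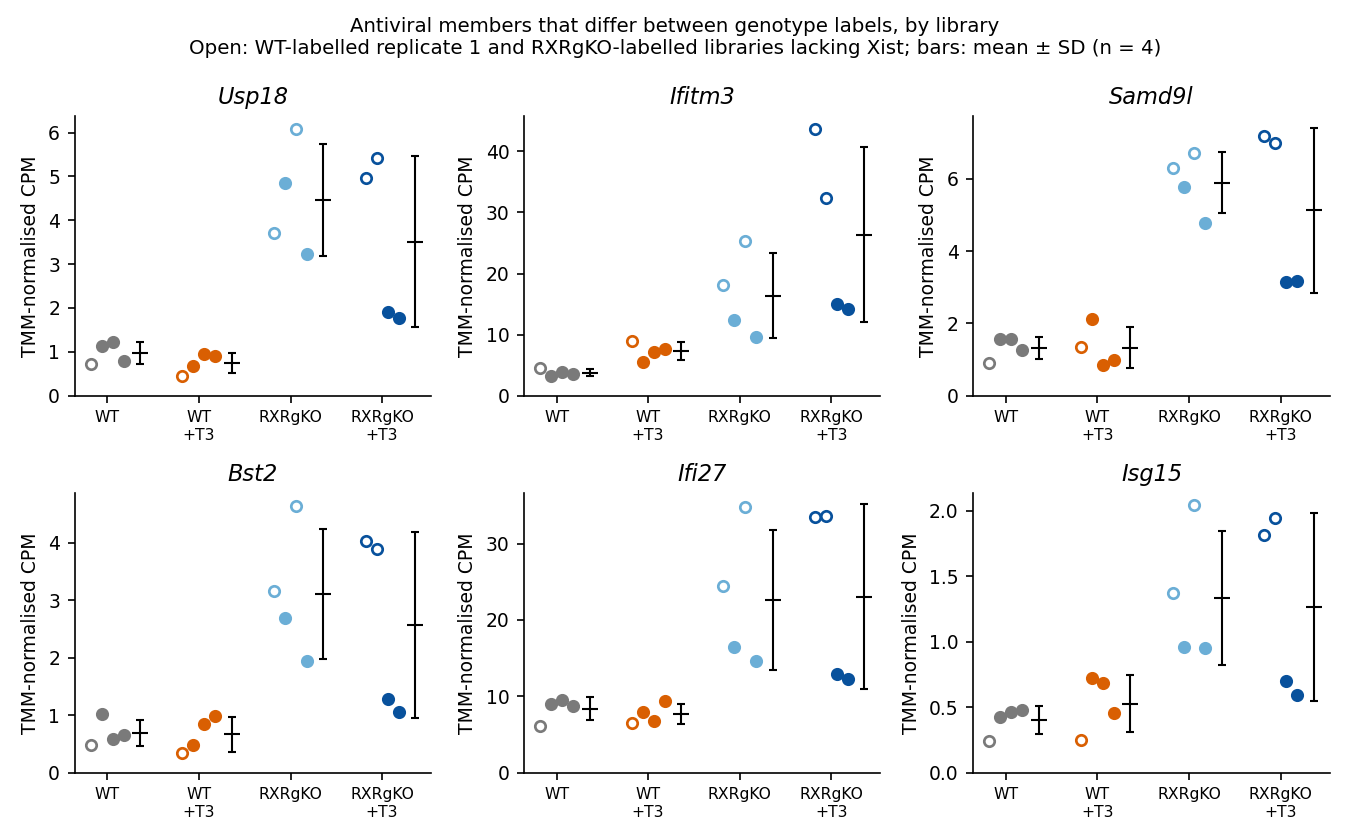
CPM by library of Usp18, Ifitm3, Samd9l, Bst2, Ifi27 and Isg15 in the 4 groups, with mean ± SD (n = 4). The RXRgKO-labelled libraries lie above the WT-labelled ones untreated, and with T3 the RXRgKO-labelled libraries lacking Xist (open) lie above those with Xist.

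Bst2, or tetherin, which holds budding virus at the cell surface, was at 0.488, 1.01, 0.590 and 0.653 CPM in untreated WT-labelled and 3.15, 2.70, 4.64 and 1.94 CPM in untreated RXRgKO-labelled libraries. T3-treated libraries held 0.348, 0.480, 0.853 and 0.989 CPM (WT label) and 4.02, 3.89, 1.27 and 1.06 CPM (RXRgKO label). The log2 differences were 2.17 (adjusted p = 0.00469, SE 0.46) and 1.91 (adjusted p = 0.00984, SE 0.47), and the treated libraries with Xist, replicates 3 and 4, came nearest to the WT-labelled ones. Ifi27 was at 6.18, 9.0, 9.56 and 8.75 CPM in untreated WT-labelled and 24.4, 16.5, 34.8 and 14.7 CPM in untreated RXRgKO-labelled libraries. With T3 it was at 6.51, 8.02, 6.74 and 9.40 CPM (WT label) and 33.4, 33.6, 12.9 and 12.3 CPM (RXRgKO label). It did not overlap in either treatment, with log2 differences of 1.43 (adjusted p = 0.00950, SE 0.34) and 1.58 (adjusted p = 0.00403, SE 0.34). Oasl2 was at 0.488, 0.465, 0.505 and 0.740 CPM in untreated WT-labelled and 1.23, 1.54, 2.51 and 1.01 CPM in untreated RXRgKO-labelled libraries. The T3-treated levels were 0.442, 0.288, 0.256 and 0.206 CPM (WT label) and 1.04, 1.68, 0.390 and 0.468 CPM (RXRgKO label). With T3, RXRgKO-labelled replicate 3, a library with Xist, lay within the WT-labelled range, and the log2 differences were 1.5 (adjusted p = 0.0285, SE 0.43) and 1.47 (adjusted p = 0.0440, SE 0.47). Parp14, an ADP-ribosyltransferase, was at 1.10, 1.18, 1.56 and 2.52 CPM in untreated WT-labelled and 2.64, 3.77, 5.28 and 2.42 CPM in untreated RXRgKO-labelled libraries. With the hormone the values were 2.28, 2.40, 2.13 and 2.18 CPM (WT label) and 4.60, 4.68, 3.82 and 3.13 CPM (RXRgKO label). It overlapped without T3 and not with T3, and had log2 differences of 1.14 (adjusted p = 0.0107, SE 0.28) and 0.84 (adjusted p = 0.0424, SE 0.27).

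Among the effectors called in the untreated comparison alone, untreated Isg15 was at 0.244, 0.422, 0.463 and 0.479 CPM in WT-labelled and 1.37, 0.963, 2.04 and 0.955 CPM in RXRgKO-labelled libraries (1.71, adjusted p = 0.0180, SE 0.45). Ifit1, which binds viral RNA lacking cap methylation, was at 0.650, 0.760, 0 and 0.131 CPM in WT-labelled libraries and 1.61, 1.89, 2.09 and 1.13 CPM in RXRgKO-labelled ones. In WT-labelled replicate 3 its count was 0, where 3 counts, the limit that a count of 0 allows for counting error only, would be 0.126 CPM, and its log2 difference was 2.09 (adjusted p = 0.0442, SE 0.64). Xaf1, an antagonist of an apoptosis inhibitor, was at 0.244, 0.127, 0.126 and 0.261 CPM in WT-labelled and 1.10, 0.770, 1.45 and 0.687 CPM in RXRgKO-labelled libraries (2.36, adjusted p = 0.00321, SE 0.48). Rtp4, a receptor transporter induced by interferon, was at 1.06, 1.06, 1.22 and 1.26 CPM in WT-labelled and 3.97, 2.39, 4.98 and 2.48 CPM in RXRgKO-labelled libraries (1.58, adjusted p = 0.0232, SE 0.43). These 4 genes did not overlap between labels without T3. With T3 their RXRgKO-labelled values were 1.82, 1.95, 0.702 and 0.591 CPM for Isg15, 1.62, 2.42, 0.390 and 0.591 CPM for Ifit1, 0.929, 1.58, 0.416 and 0.591 CPM for Xaf1 and 5.53, 4.53, 1.46 and 1.08 CPM for Rtp4. Each overlapped the WT-labelled libraries there, and replicates 1 and 2, which lack Xist, were the higher ones in all 4. Isg15, Ifit1 and Xaf1 were at most at 2.42 CPM in any library, so their values rest on few counts.

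Among sensors and transcription factors, Ifih1, which encodes the RNA sensor MDA5, was at 1.91, 1.48, 1.05 and 1.83 CPM in untreated WT-labelled and 2.36, 3.24, 4.17 and 2.48 CPM in untreated RXRgKO-labelled libraries. The labels did not overlap, and the log2 difference was 0.96 (adjusted p = 0.0117, SE 0.23). Ddx58, which encodes the sensor RIG-I, had 0.53 (adjusted p = 0.109, SE 0.20), Dhx58 0.24 (adjusted p = 0.533, SE 0.19) and Trim25, which ubiquitinates RIG-I, 0.67 (adjusted p = 0.103, SE 0.25). Irf1 differed by 0.77 (adjusted p = 0.00175, SE 0.14) without T3 and by 0.31 (adjusted p = 0.167, SE 0.14) with T3. Irf9 was at 23.7, 19.9, 20.5 and 20.3 CPM in T3-treated WT-labelled and 28.0, 26.2, 26.4 and 27.1 CPM in T3-treated RXRgKO-labelled libraries. It did not overlap there (0.35, adjusted p = 0.0382, SE 0.11). Ifit2 was at 11.2, 6.15, 5.89 and 7.05 CPM in T3-treated WT-labelled and 16.9, 14.3, 11.1 and 10.6 CPM in T3-treated RXRgKO-labelled libraries. It overlapped through WT-labelled replicate 1 and passed with 0.79 (adjusted p = 0.0392, SE 0.25).

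Gbp3 was higher under the RXRgKO label without T3 (1.09, adjusted p = 0.0112, SE 0.27) and had -0.45 (adjusted p = 0.237, SE 0.23) with T3. Gbp2 and Gbp7 did not pass in either treatment, with values from 0.31 to 0.78. In antigen presentation, H2-K1 was at 33.3, 37.9, 41.3 and 34.1 CPM in untreated RXRgKO-labelled libraries, all above the WT-labelled ones (0.75, adjusted p = 0.0460, SE 0.23), and at 72.5, 62.6, 31.7 and 33.7 CPM with T3, where it overlapped them (0.46, adjusted p = 0.219, SE 0.23). Psmb8 was at 1.42, 2.53, 1.56 and 1.39 CPM in untreated WT-labelled and 4.56, 2.54, 7.41 and 2.30 CPM in untreated RXRgKO-labelled libraries. It overlapped through WT-labelled replicate 2 and had a log2 difference of 1.27 (adjusted p = 0.0430, SE 0.39). Tap1 was at 7.68, 4.06, 3.79 and 4.44 CPM in untreated WT-labelled and 9.73, 8.51, 9.83 and 7.79 CPM in untreated RXRgKO-labelled libraries. T3-treated libraries held 8.56, 6.0, 4.95 and 5.44 CPM (WT label) and 10.2, 9.53, 9.37 and 10.9 CPM (RXRgKO label). It did not overlap in either treatment and had log2 differences of 0.84 (adjusted p = 0.0141, SE 0.21) and 0.68 (adjusted p = 0.0387, SE 0.21). H2-D1 had 0.22 (adjusted p = 0.667, SE 0.23) and -0.32 (adjusted p = 0.424, SE 0.23), so the heavy chain gene that rose with T3 was not among those that passed between the labels.

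The 12 members that passed in no comparison were Irf7, Stat2, Ddx58, Dhx58, Trim25, Ifit3, Rsad2, Mx1, Ifi35, Lgals3bp, Psmb9 and B2m. Mx1, a dynamin-like antiviral GTPase, was the least expressed member per length at 0.0943 CPM per kilobase, and its library values ran from 0.0632 to 0.979 CPM. Its log2 differences between labels were 1.48 (adjusted p = 0.109, SE 0.56) without T3 and 0.76 (adjusted p = 0.416, SE 0.54) with T3. Psmb9 had 1.11 (adjusted p = 0.0932, SE 0.40) and 1.00 (adjusted p = 0.0963, SE 0.39), and Ifi35 had 1.06 (adjusted p = 0.0600, SE 0.35) and 0.59 (adjusted p = 0.286, SE 0.33). Ifit3, a partner of Ifit1, had 0.33 (adjusted p = 0.597, SE 0.30) and 0.87 (adjusted p = 0.0595, SE 0.30). Rsad2 narrowly did not overlap between the WT and RXRgKO labels without T3, at 1.18, 1.31, 1.64 and 1.13 CPM and 1.64, 2.27, 2.77 and 1.79 CPM, yet had 0.68 (adjusted p = 0.128, SE 0.27). Lgals3bp, a secreted galectin ligand, had 0.75 (adjusted p = 0.318, SE 0.41) and 0.58 (adjusted p = 0.406, SE 0.40).

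Within the RXRgKO label, more members were higher than lower in the libraries lacking Xist, and more so with T3. Untreated, 17 of 34 were higher without overlap and 2, Stat2 and Ifit3, were lower, where 39.2% of all genes were higher and 36.6% lower. With T3, 28 of 34 were higher and 1, Stat2, was lower, where 39.6% of all genes were higher and 39.7% lower. The median log2 ratio of mean CPM + 0.5 was 0.35 untreated and 0.87 with T3, against 0.03 and 0.02 for all genes. Members higher in both treatments numbered 15. The share of all genes higher in both was not counted, so nothing particular to the members is read from that number. Gbp2 was at a mean of 18.8 CPM in the untreated libraries lacking Xist against 6.80 CPM where Xist was present, and with T3 at 45.1 against 20.8 CPM. For B2m these means were 88.1 against 62.2 CPM untreated and 137 against 55.5 CPM with T3. For H2-K1 they were nearly equal untreated, 37.3 against 36.0 CPM, but 67.6 against 32.7 CPM with T3. With 2 libraries a set these are descriptions with no test.

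The genotype counts depended on these sets. Without the libraries lacking Xist, 11 members were higher under the RXRgKO label without T3, where 6.16% of all genes were higher (11.3% in both directions). With T3 4 were then higher (Usp18, Samd9l, Ifitm3 and Ifi27) and 3 lower (Gbp3, B2m and H2-D1), where 8.21% of all genes were higher (15.8% in both directions). H2-D1 then had -0.95 (adjusted p = 0.00503, SE 0.19) and B2m -0.59 (adjusted p = 0.0137, SE 0.14). Without the libraries with Xist, 23 were higher without T3 and 21 with T3. Of all genes 8.78% and 11.8% were then higher, and 20.9% and 27.5% were called in both directions, also more than with all libraries. B2m then had 0.70 (adjusted p = 0.00334, SE 0.14) with T3. These settings were added after seeing the data. Single libraries mattered too. The untreated count was 11 without WT-labelled replicate 3 and 10 without RXRgKO-labelled replicate 3, where 8.42% and 8.56% of all genes were called. The count with T3 was 5 without any 1 of WT-labelled replicates 2, 3 or 4 or RXRgKO-labelled replicates 1 or 2, where 10.5% to 12.0% of all genes were called. Kept in every alternative run were Irf1, Usp18, Bst2, Ifitm3, Ifi27, Samd9l and Gbp3 without T3, and Usp18, Ifitm3, Ifi27 and Samd9l with T3. Xaf1 was kept without T3 in every alternative that tested it.

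Summed markers of microglia and macrophages, cells that express many interferon-induced genes, were higher in the same groups. Their 15 genes summed to 6.38 to 8.44 CPM in untreated and 5.36 to 6.39 CPM in T3-treated WT-labelled libraries, and to 30.7 to 50.3 and 12.2 to 46.5 CPM in RXRgKO-labelled ones. Of the 15, 1 and 2 averaged 1 CPM or more in the untreated and T3-treated WT-labelled groups, and 13 and 12 in the RXRgKO-labelled groups. Within the RXRgKO label the sum was 45.1 to 50.3 CPM in untreated libraries lacking Xist against 30.7 to 31.9 CPM where Xist was present, and with T3 these ranges were 37.2 to 46.5 and 12.2 to 15 CPM. The complement gene C1qb had group means of 0.454 and 0.161 CPM under the WT label and 5.24 and 3.42 CPM under the RXRgKO label. P2ry12 did not follow the labels, at 0.377 and 1.31 CPM under the WT label and 0.383 and 1.00 CPM under the RXRgKO label. The other listed markers had higher means under the RXRgKO label in both treatments. Aif1, which marks microglia, had a count of 0 in 4 of 16 libraries, and Itgam and C1qc each in 2. Endothelial markers (10 genes) summed to 8.29 to 12.9 CPM in WT-labelled and 25.2 to 54.8 CPM in RXRgKO-labelled libraries, and lymphocyte markers (10 genes) to 1.17 to 6.0 CPM over all 16. Of the endothelial genes, 2 averaged 1 CPM or more in each WT-labelled group, and 4 and 3 in the RXRgKO-labelled groups. Kdr made most of the sums, at group means of 5.72 and 7.74 CPM (WT label) and 30.6 and 23.2 CPM (RXRgKO label). All 10 had higher means under the RXRgKO label, but Cldn5 was at most at 0.130 CPM in any group. Neuron markers (10 genes) summed to 409 to 816 CPM in untreated and 376 to 506 CPM in T3-treated WT-labelled libraries. In RXRgKO-labelled libraries these sums were 835 to 1079 and 738 to 994 CPM, and every neuron marker had a higher mean there. The sums of mature oligodendrocyte markers, given below, were lower under the RXRgKO label, although Aspa and, with T3, Opalin had higher means. In the WT-labelled libraries, where Gbp3, Gbp2 and Gbp7 rose, the highest microglial sum with T3 (6.39 CPM) was at the lowest untreated one (6.38 CPM). That sum mixes directions. The means of P2ry12 and of Cd68 (2.64 CPM untreated, 2.77 CPM treated) were higher with T3 there, and those of the other markers were lower.

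The summed markers of mature oligodendrocytes and astrocytes rose with T3, as the Gbp genes did. The mature oligodendrocyte markers (10 genes) summed to 8276 to 11091 CPM in untreated and 11897 to 19524 CPM in T3-treated WT-labelled libraries. In RXRgKO-labelled libraries these sums were 1556 to 2051 CPM and 2783 to 4260 CPM. Treated and untreated sums did not overlap under either label. By group mean, Aspa was lower with T3 under the WT label (3.39 CPM untreated, 3.06 CPM treated) and level under the RXRgKO label. Ermn was lower under the RXRgKO label (1.27 and 1.13 CPM), and the other markers were higher under both labels. For the astrocyte markers (10 genes) of the WT-labelled libraries, T3-treated replicate 1 had a sum of 15873 CPM against 8916 CPM for its untreated counterpart. In replicates 2 to 4 the treated sums were 5194 to 6212 CPM against 3586 to 3766 CPM. Gfap changed most, from a group mean of 1846 CPM untreated to 4773 CPM with T3 under the WT label. Aqp4, Aldoc, Slc1a2 and Aldh1l1 also had higher means with T3 there, while Slc1a3, S100b, Gja1, Sox9 and Fgfr3 had lower ones. So the astrocyte sum rose under the WT label while its markers went both ways. Under the RXRgKO label Slc1a3, Slc1a2 and Fgfr3 had lower means with T3, and the other astrocyte markers had higher ones.

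The RXRgKO-labelled sets also differed in the markers of several cell types. Astrocyte sums were 5762 to 6104 CPM in untreated libraries lacking Xist against 3197 to 3285 CPM where Xist was present, and with T3 7513 to 8544 CPM against 4742 to 4995 CPM. Both sets were higher with T3. Lymphocyte sums were also higher where Xist was lacking, at 3.97 to 6.0 CPM against 1.85 to 2.23 CPM untreated. OPC markers (10 genes) were lower there, at 2707 to 2983 CPM against 5106 to 5171 CPM untreated. So were the untreated endothelial sums, which Kdr dominates, at 25.2 to 35.3 CPM against 47.6 to 54.8 CPM. The part of other cell types in the T3 changes of the Gbp genes, the label differences of the antiviral effectors and the differences between the sets was not tested.

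**Figure D5:**
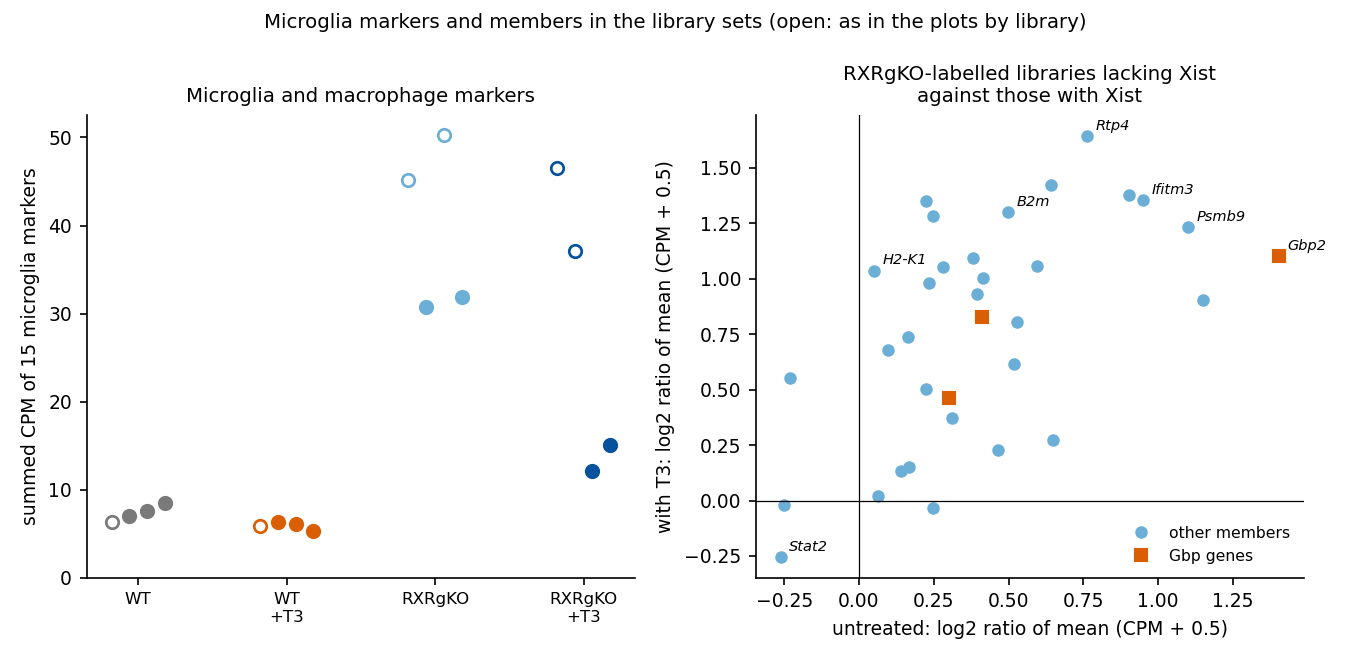
Left, summed CPM of 15 microglia and macrophage markers by library, with sums of 5.36 to 8.44 CPM under the WT label and 12.2 to 50.3 CPM under the RXRgKO label. Right, each member's log2 ratio of mean CPM + 0.5 between RXRgKO-labelled libraries lacking Xist and those with Xist, untreated (x) and with T3 (y), where most points lie above 0 on both axes.

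Other genes of the pathway were read from lists of ligands and signalling genes, further interferon-induced genes, further GTPases and further antigen presentation genes. For each list the shares of all genes to read beside its counts are 4.96% and 2.01% higher with T3 (WT and RXRgKO label), and 6.17% and 8.1% higher between the labels (without and with T3). The interferon ligand genes listed were below the filter, with 5 counts of Ifnb1, 26 of Ifng, 29 of Ifnk, 15 of Ifna4, 3 of Ifnl2 and 2 of Ifnl3 over all 16 libraries. The receptor genes were expressed, Ifnar1 at 73.3 to 104 CPM and Ifngr1 at 18.8 to 42.4 CPM by library. Of 25 ligand, receptor and signalling genes tested (median log2 fold change 0.20 under both labels), 4 were higher with T3 in WT-labelled and 3 in RXRgKO-labelled libraries, and 0 lower in either. Nlrc5, the transactivator of MHC class I genes, was at 4.80, 4.90, 4.17 and 5.75 CPM in untreated and 18.0, 32.1, 26.0 and 26.4 CPM in T3-treated WT-labelled libraries. In RXRgKO-labelled libraries it was at 4.11, 5.24, 5.70 and 5.28 CPM untreated against 8.51, 7.0, 11.7 and 13.0 CPM with T3. The log2 fold changes with T3 were 2.38 (adjusted p = 2.8e-06, SE 0.21) and 0.99 (adjusted p = 0.0128, SE 0.21), and the difference of the responses was -1.39 (adjusted p = 0.114, SE 0.29). Socs3, a feedback inhibitor of JAK kinases, was at 12.5, 9.38, 8.42 and 10.1 CPM in untreated and 90.2, 72.9, 69.2 and 70.2 CPM in T3-treated WT-labelled libraries. Its log2 fold changes were 2.90 (adjusted p = 2.7e-07, SE 0.20) and 2.42 (adjusted p = 2.2e-06, SE 0.19). Stat3 rose under both labels (1.31, adjusted p = 0.00155, SE 0.23 and 1.11, adjusted p = 0.0111, SE 0.23). Between the labels 3 genes of this list were higher and 1 lower without T3. With T3, 2 were higher and 2 lower, Nlrc5 among the lower. Of all genes 5.16% and 6.8% were lower. The list's median between the labels was 0.08 without and 0.14 with T3.

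Of 38 other interferon-induced genes tested, 1 was higher with T3 under each label, Ifi203, a DNA-binding p200 family gene (2.02, adjusted p = 1.0e-04, SE 0.26 and 1.49, adjusted p = 0.00494, SE 0.27), and 0 were lower. Between the labels 9 were higher and 1 lower without T3, and 7 higher and 1 lower with T3. Lgals9, or galectin 9, had 3.20 (adjusted p = 1.1e-04, SE 0.44) without T3, Trim30a 2.17 (adjusted p = 0.00414, SE 0.46) and the chemokine gene Cxcl10 2.40 (adjusted p = 0.00463, SE 0.51). The lower 1 was Ifi203 in both treatments (-1.0, adjusted p = 0.0261, SE 0.28 and -1.53, adjusted p = 4.0e-04, SE 0.25). The list's median was 0.06 and 0.04 with T3, and 0.56 and 0.38 between the labels.

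Of 10 other interferon-inducible GTPases tested, Irgm1, an immunity-related GTPase, rose with T3 under both labels (1.48, adjusted p = 0.00200, SE 0.27 and 1.10, adjusted p = 0.0317, SE 0.26), and Gbp6 rose under the RXRgKO label (0.96, adjusted p = 0.0337, SE 0.23). Gbp6 was at 2.11, 2.96, 3.20 and 3.83 CPM in untreated and 2.97, 3.07, 2.65 and 2.93 CPM in T3-treated WT-labelled libraries. These overlapped, and its log2 fold change there was -0.06 (adjusted p = 0.914, SE 0.22). Between labels 4 were higher and 1, Gbp6, lower without T3, and 3 higher and 0 lower with T3. The list's median was 0.78 and 0.35 with T3, and 1.26 and 1.00 between the labels. Of 24 other antigen presentation genes tested, 4 rose with T3 in WT-labelled libraries and 0 passed in RXRgKO-labelled ones. The 4 were the immunoproteasome subunit Psmb10 (0.75, adjusted p = 0.00232, SE 0.14), the peptide-loading proteins Pdia3 (0.63, adjusted p = 0.00532, SE 0.13) and Calr (0.57, adjusted p = 0.0168, SE 0.14), and the tapasin-related Tapbpl (0.67, adjusted p = 0.0367, SE 0.19). Between labels 1 was higher without T3 (Tapbpl) and 1 with T3 (H2-M3). The list's median was 0.38 and 0.24 with T3, and 0.50 and 0.35 between the labels.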

How the data were processed

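RNA sequencing of 16 libraries (4 groups of 4) gave raw read counts per Ensembl gene, deposited by the authors with no normalization. The tools, per the submitters' processing notes, were STAR 2.5.3a, HTSeq 0.6.1p1 and bcl2fastq 2.17.1.14, with build mm10. For the annotation release and the strand setting, the sources used here give nothing. Of the entries counted for each library, 22.4% to 46.7% fell in genes, 39.6% to 55.0% had several placements and 11.5% to 23.5% met no feature. Entries outside genes stayed out of library sizes. A read placed at several sites may be entered more than once, so these may not be shares of reads.

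Symbols came from GENCODE M21 (55154 of 55335 IDs named), and of 196 genes of further lists 195 were found. Counts were scaled by TMM factors, filtered by group with filterByExpr and tested with edgeR 4.0.16 (R 4.3.3; robust quasi-likelihood F test over all 16 libraries, Benjamini-Hochberg adjustment over 19764 genes, threshold 0.05). CPM values are TMM-normalised, and the SE was derived from the log2 fold change and the F statistic. The procedure was tested on simulated data. These were drawn independently for each library, without sets of like libraries, so they cannot show how the tests behave with such sets. Members and lists were chosen with earlier results of these data known. The rule for named genes was all 34 members by role, values by library for members called at least once, and up to 4 called genes per list and comparison. A few others were named after their values were seen. A called gene of the signalling list is not reported here.

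Library sets joined libraries of a group whose chi-square per gene was under 3. In the WT-labelled groups, residuals of libraries with the same replicate number correlated at 0.778, 0.518, 0.528 and 0.303, all over 0.1. Those numbers were therefore taken as pairs in an alternative, the replicate block within the WT-labelled libraries. The main fit had no replicate block, so its calls and p-values are unpaired. Replicate 1 was the only one to match its own number best. No such pairing held for the other comparisons, although the replicate block over all libraries used the numbers there too. Alternatives were DESeq2 1.42.0, limma 3.58.1 (voom), other size factors and filters, fewer groups, a replicate block, the library set as a term and leaving out libraries.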

Additional observations from a re-analysis of the deposited data

Results flagged for a closer look

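For 12 of 136 member and group combinations, 1 library of 4 lay far from the other 3 by Dixon's test, where chance gives about 1 in 20. In the WT-labelled groups these were mostly replicate 1. With T3 it was at 23.7 CPM for Irf9, 9.80 CPM for Ddx58, 49.6 CPM for Gbp3 and 21.8 CPM for Gbp7, above the others in each. Untreated it was at 37.3 CPM for Stat2, 3.17 CPM for Ifit3 and 7.68 CPM for Tap1, again above the others. The remaining WT-labelled values were Trim25 at 4.25 CPM in T3-treated replicate 4, Oasl2 at 0.740 CPM in untreated replicate 4 and Psmb8 at 2.53 CPM in untreated replicate 2. In untreated RXRgKO-labelled replicate 3, Ifit2 was at 17.1 CPM and Lgals3bp at 5.15 CPM. No T3-treated RXRgKO-labelled library stood apart in this way. That group split into a pair lacking Xist and a pair with it, a split that this test of 1 library against 3 cannot flag.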

How the results depend on the processing

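No called member or count changed direction in the alternatives run, but B2m with T3 between the labels, not called at 0.26, was called at -0.59 without the RXRgKO-labelled libraries lacking Xist. Beside each count of members called, the share of all genes called in that setting stands in parentheses. With T3 in WT-labelled libraries it was 5 (8.44%), and 8 with DESeq2 (12.2%), 8 with only the groups compared fitted (9.35%), 14 with the library set as a term (37.6%), 12 with a replicate block within the 8 WT-labelled libraries (29.4%), 6 with a replicate block over all libraries (7.78%), and 5 to 9 without 1 library (4.83% to 12.0%). In RXRgKO-labelled libraries it was 2 (2.81%), and 5 with DESeq2 (5.85%), 12 with the library set as a term (37.5%), 5 without WT-labelled replicate 1 (7.49%), 6 without the libraries lacking Xist (4.02%), and 2 to 4 without 1 library (1.23% to 2.46%). Between labels without T3 the count was 17 (11.3%), and 11 without the RXRgKO-labelled libraries lacking Xist (11.3%), 15 with the replicate block (10.7%) and 10 to 17 without 1 library (8.42% to 10.7%). With T3 it was 10 (14.9%), and 21 without the RXRgKO-labelled libraries with Xist (27.5%), 7 with the replicate block (14.3%) and 5 to 13 without 1 library (10.5% to 15.4%). The difference of T3 responses had 0 calls (0.0658%), but 1 with DESeq2 (0.511%) and 1 without the libraries lacking Xist (0.132%), and 0 to 0 without 1 library (0.0145% to 0.237%). The Gbp median minus that of the other members under T3 was 1.41 (1.24 to 1.57 without 1 library) in WT-labelled and 1.34 (1.11 to 1.59 without 1 library) in RXRgKO-labelled libraries, where it was 1.81 without the libraries lacking Xist and 1.08 without those with Xist. The cause of these shifts was not tested. The library set was not used as a term between labels, since the sets do not correspond across them. Genes near 1 CPM are limited by depth.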
